A study of Drosophila melanogaster with 48 samples.

Results

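The 9 genes described here are the core of the fly's p53-Xrp1 and cell death pathway: *p53*, *Xrp1*, *irbp18*, *rpr*, *hid*, *grim*, *skl*, *Diap1* and *Dronc*. They were taken by FlyBase symbol from a table of 13957 genes, and all 9 were found and passed the filter on low counts. RNA was sequenced from heads of *Drosophila melanogaster* males aged 5 to 7 days, with 60 heads per library. Males were kept on plain food (control) or on food with 75 mM menadione sodium bisulfite (MSB), a compound that generates reactive oxygen inside cells. The 12 lines were M12N3 and M12D3, M9N1 and M9D3 (Munich, Germany), C2N1 and C2D3 (Cyprus), KL02 and KL01 (Malaysia), and ZI197, ZI254, ZI273 and ZI418 (Zambia). M12D3, M9D3, C2D3 and KL01 carry a deletion in the 3′ UTR of *MtnA*, a metallothionein gene, and the other 8 lines do not. The M12, M9 and C2 pairs are each nearly isogenic and go back to 1 isofemale line, whereas the Malaysian pair is not isogenic. Time on MSB or control food was 24 h in the 8 lines from outside Africa, called cosmopolitan here. It was 18 to 20 h in the Zambian lines, for controls as well as stress.

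Each line had 2 control libraries. By the labels there were 2 stress libraries per line, except for 1 in ZI197 and ZI418 and 3 in ZI254 and ZI273. One M9N1 stress library was left out because it lay far from the others in a principal component analysis, so 47 libraries were used, with 27223075 to 63358011 counts each. In the 47 libraries, photoreceptor markers summed to 26000 to 64300 CPM (counts scaled to library size), while testis markers summed to at most 1.46 CPM. Under MSB, 3 of 3 glial markers and 3 of 4 hemocyte markers were lower, and 0 of 4 neuronal markers passed the test. Both tested muscle markers of 3 and 1 of 4 photoreceptor markers, *norpA* (log2 -0.28), were lower as well. The glial markers summed to 1550 to 3250 CPM in controls and 1000 to 2680 CPM under stress, the hemocyte markers to 204 to 494 and 167 to 377 CPM, and the muscle markers to 829 to 2080 and 665 to 1410 CPM. In bulk tissue, fewer cells of a type and less RNA per cell cannot be told apart, and the part of these shifts in the results below was not tested.

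In flies, *p53* encodes the single p53-family transcription factor, which acts in the response to DNA damage. *Xrp1* encodes a bZIP transcription factor that is induced downstream of p53 after irradiation and also acts in the elimination of cells with ribosomal defects. Irbp18 is the bZIP partner of Xrp1. Apoptosis in flies is held back by Diap1, a ubiquitin ligase that binds caspases such as the initiator Dronc. The products of *rpr*, *hid*, *grim* and *skl*, the IAP antagonists, bind Diap1 and free the caspases.

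By position, 7 of the 9 genes are on chromosome arm 3L, and *p53*, at 23049657 to 23054082, and *Xrp1*, at 18914968 to 18926989, are on 3R (release 6 assembly, Ensembl annotation 115). On 3L, *hid* (18167745 to 18185641), *grim* (18302719 to 18304417), *rpr* (18397535 to 18398435) and *skl* (18438561 to 18439942) lie within 272.2 kb and all run on the minus strand. *Diap1* lies at 16038410 to 16051034, *Dronc* at 9968479 to 9971002 and *irbp18* at 11097446 to 11098186 on the same arm. Exons of *irbp18* overlap those of *CG33947* on the opposite strand, and whether the counting used strand is not given in the sources used here. *CG33947* had 11.5 CPM in controls and 11.4 CPM under stress (log2 change -0.02, edgeR adjusted p = 0.89). Noncoding genes overlapping *p53*, *grim* and *Diap1* in the annotation have no row in the table, so their reads cannot be told apart from those of the member.

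In controls, levels per kilobase of gene length spanned a wide range. *Xrp1* had a median of 115 CPM per kilobase (97 to 169 over 24 control libraries) and *Diap1* one of 111 (98.8 to 128). These 2 genes could not be ordered in controls, since *Xrp1* was the higher in 13 of 24 libraries. *irbp18* followed with a median of 34.3 CPM per kilobase. *Dronc* (5.16) and *p53* (4.83) did not differ beyond their spread, with *Dronc* higher in 11 of 24 control libraries. The IAP antagonists were the lowest, with control medians of 3.14 CPM per kilobase for *hid*, 2.94 for *skl*, 1.52 for *rpr* and 0.69 for *grim*. Of these, *hid* was above *skl* in 15 of 24 controls, while *skl* exceeded *rpr* and *rpr* exceeded *grim* in 24 of 24. Under MSB, *Xrp1* rose clear of *Diap1* in 23 of 23 libraries, with a median of 347 CPM per kilobase against 202.

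To ask how the pathway responded to MSB over all lines, control and stress libraries were compared in an edgeR quasi-likelihood fit with treatment as the only term. This fit took libraries as independent replicates, although libraries of the same line share their genotype. All p-values below are two-sided and adjusted over all tested genes by the Benjamini-Hochberg method, with a threshold of 0.05. Of the 9 members 5 rose, 0 fell, and the 4 IAP antagonists did not pass the test. Of 10514 tested genes, 27.3% were called higher and 53.5% were called in either direction, against 5 of 9 members called, all higher. The median log2 change was 0.36 over the 9 members and 0.01 over all tested genes.

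*Xrp1* gave the clearest response. Its level was 351 to 613 CPM in the 24 controls (median 415) and 724 to 1740 CPM in the 23 stress libraries (median 1256). No stress library fell within the range of the controls. Such a separation upward was seen in 0.666% of tested genes. The change was 2.98-fold, or 1.58 ± 0.09 on the log2 scale (SE, edgeR adjusted p = 4.27e-20). By p-value *Xrp1* ranked 4 among the 10514 genes tested, and by size of the rise it ranked 314.

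*p53* rose less than *Xrp1*. Control libraries ranged from 8.55 to 13.0 CPM (median 10.1) and stress libraries from 11.5 to 21.2 CPM (median 13.9). In 19 of 23 stress libraries the level was above the highest control. The change was 1.4-fold (log2 0.48 ± 0.05, SE, edgeR adjusted p = 1.69e-10). *irbp18*, which encodes the partner of Xrp1, went from 15.8 to 32.5 CPM in controls (median 21.0) to 16.9 to 43.2 CPM under stress (median 26.9). Its groups overlapped widely, with 16 of 23 stress libraries inside the control range. The rise was 1.28-fold (log2 0.36 ± 0.10, SE, edgeR adjusted p = 0.00136).

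The inhibitor and the initiator caspase rose as well. *Diap1* was at 228 to 295 CPM in controls (median 257) and 270 to 758 CPM under stress (median 464). Only M12N3 stress 2, at 270 CPM, lay within the control range, and the other 22 stress libraries lay above it. The change was 1.78-fold (log2 0.83 ± 0.07, SE, edgeR adjusted p = 3.02e-14). *Dronc* had 7.90 to 37.8 CPM in controls (median 10.4) and 10.3 to 45.9 CPM under stress (median 16.4). The groups overlapped in 21 of 23 stress libraries because levels differed strongly between lines. Its change was 1.5-fold (log2 0.58 ± 0.19, SE, edgeR adjusted p = 0.00726). Without the 4 Zambian lines the *Dronc* change was 0.47 with an adjusted p of 0.123, and with line as a block it was 0.54 with an adjusted p of 3.66e-12.

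**Figure D1:**
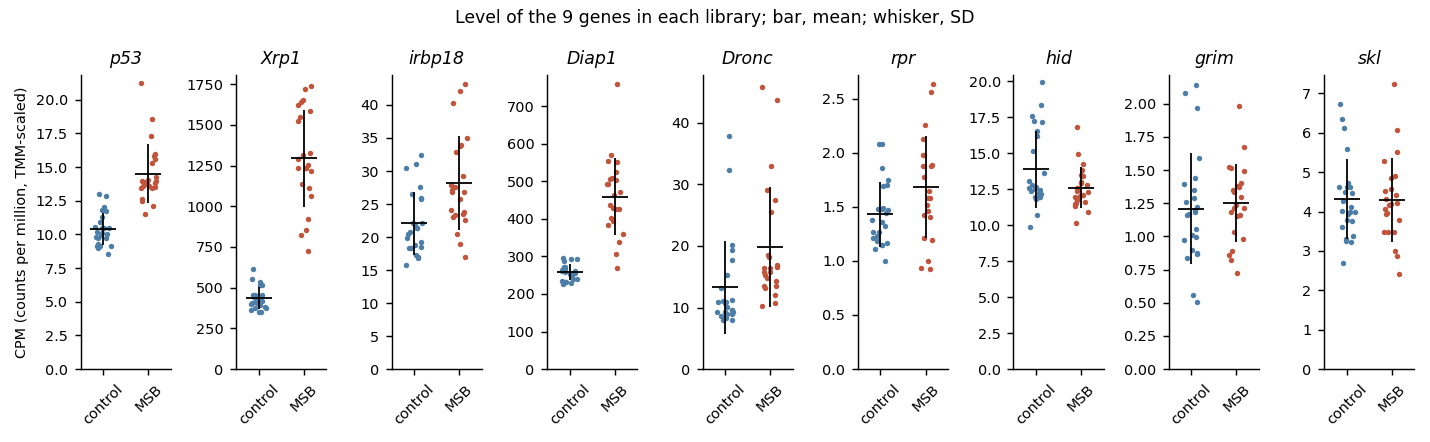
Level of each of the 9 genes (CPM, linear axes from 0) in 24 control and 23 MSB libraries, 1 point per library, with the mean as a bar and the SD as a whisker. *Xrp1* is separated between the groups, whereas *hid*, *grim* and *skl* overlap almost entirely.

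None of the IAP antagonists was called. *rpr* had 0.997 to 2.08 CPM in controls (median 1.37) and 0.927 to 2.64 CPM under stress (median 1.64). Its log2 change was 0.23 ± 0.11 (SE, edgeR adjusted p = 0.0604). For *hid*, controls ranged from 9.84 to 19.96 CPM (median 12.6) and stress libraries from 10.1 to 16.8 CPM (median 12.4). All 23 stress libraries of *hid* lay inside the control range, with a log2 change of -0.14 ± 0.07 (SE, edgeR adjusted p = 0.0681). Both genes were close to the threshold, and their calls turned on the model. With line as a block the changes were 0.23 for *rpr* (edgeR adjusted p = 0.0366) and -0.17 for *hid* (edgeR adjusted p = 0.0232). That fit called 7421 genes, against 5627 with treatment as the only term. When each library was left out in turn, *rpr* passed in 8 and *hid* in 4 of 47 fits.

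*grim* and *skl* showed no detectable change. *grim*, with 22 to 112 counts per library, had medians of 1.18 CPM in controls and 1.24 CPM under stress (log2 0.05 ± 0.13, SE, edgeR adjusted p = 0.766). *skl* had medians of 4.07 and 4.18 CPM (log2 -0.01 ± 0.10, SE, edgeR adjusted p = 0.949). Over the 4 antagonists the median log2 change was 0.02. Between *hid* and *skl* the annotation places 16 features, 6 of them protein coding and present in the table. The 3 of them that were tested were *grim*, *rpr* and *CheA75a*, and *CheA75a* had a log2 change of 0.07 (edgeR adjusted p = 0.922). *CG7320*, *CG5103* and *CG13700* were too low to be tested, at no more than 0.194 CPM in controls.

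The response was then tested within each line, with 1 edgeR fit per background. Of 108 combinations of a member and a line, 40 were called higher and 0 lower. *Xrp1* was called in 12 of 12 lines, *Diap1* in 10, *p53* in 8, *Dronc* in 6 and *irbp18* in 4, and none of the IAP antagonists was called in any line. In 1 edgeR fit over all 12 lines 47 combinations were called, with *Diap1* in 12 lines, *p53* in 11 and *irbp18* in 6. The DESeq2 Wald test called 42, with *Diap1* in 12 lines, *p53* in 7 and *irbp18* in 5. Without M12N3 control 2 the *Xrp1* change in M12N3 was 0.80 (edgeR adjusted p = 0.0746). Leaving out 1 library brought *rpr* past the test in M12D3 (without M12N3 stress 1 or 2), and *hid*, downward, in KL01 (without KL01 control 1) and ZI254 (without ZI254 control 1). The share of all tested genes called higher was lowest in KL02 (2.66%), M12N3 (4.08%) and C2N1 (5.3%), where 1, 1 and 2 members were called. It was 8.57% in ZI254, 8.8% in C2D3 and 8.81% in ZI197, with 4, 3 and 3 members. In ZI418 (10.1%) 5 members were called, and in ZI273 (12.7%) and KL01 (13.6%) 4 each. In M9N1 (15.8%), M12D3 (16.3%) and M9D3 (16.5%) there were 4, 5 and 4. Where a line had 1 stress library, its spread was taken from the other groups fitted with it.

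For *Xrp1* the log2 change ran from 0.90 ± 0.15 in M12N3 to 2.16 ± 0.20 in ZI418 (SE). The ZI418 values of this gene and of *Diap1* rest on 1 stress library. Mean levels went from 573 to 1078 CPM in M12N3, from 363 to 773 CPM in KL02 and from 389 to 1723 CPM in ZI418. *Diap1* changed by 0.37 ± 0.12 in M12N3 and by 0.39 ± 0.12 in KL02, both of which passed in DESeq2 and in the fit over 12 lines but not in the fit per background, and by 1.53 ± 0.16 in ZI418. For *p53* the smallest change was 0.04 ± 0.12 in M12N3 and the largest 1.10 ± 0.15 in M9N1, where it rests on 1 stress library. *irbp18* was the only one of the 5 responding genes with a value below 0 in a line, at -0.20 ± 0.13 in KL02. *rpr* changed by 0.76 ± 0.27 in M12D3 and by -0.41 ± 0.34 in ZI254, the ends of its range, and neither passed the test. *hid* was lower in 9 of 12 lines and *skl* in 6.

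**Figure D2:**
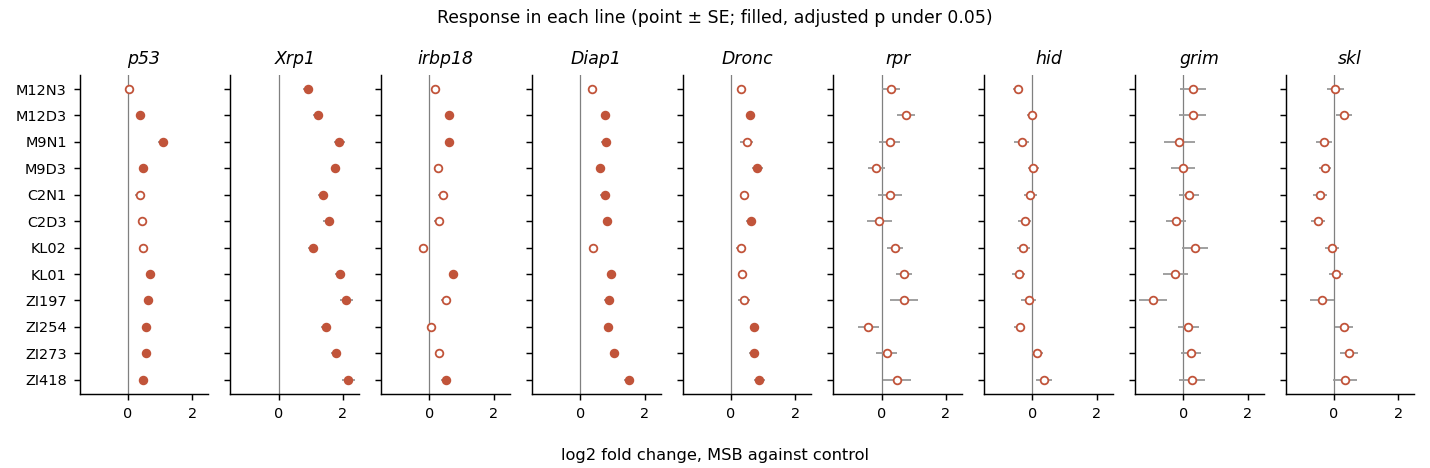
Log2 fold change of each gene in each of 12 lines (point ± SE), MSB against control, with filled points past the threshold. *Xrp1* is filled in 12 of 12 lines, and no point of *rpr*, *hid*, *grim* or *skl* is filled.

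Whether the response differed among lines was tested by the line by treatment terms over all 12 lines, which were called in 9.66% of tested genes. The 4 members called were *Xrp1* (edgeR adjusted p = 0.00212), *Diap1* (0.00507), *p53* (0.0176) and *irbp18* (0.0223). *Dronc* was not (0.419), and adjusted p-values of the IAP antagonists were 0.376 to 0.807. The call for *p53* was lost without M9N1 stress 2 (adjusted p = 0.204), without M12N3 stress 2 (0.0517) or without M12N3 control 2 (0.0534). That for *Diap1* was lost without ZI418 stress 1 (0.0778), and that for *irbp18* without KL02 control 2. Leaving out M9N1 stress 2 or ZI418 stress 1 removed that line whole from the fit, since no other stress library of it was in use.

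Levels of *Xrp1* and *Diap1* in the stress libraries followed the library's place in the principal component analysis. The other members were not compared with it in this way. M12N3 stress 2 and KL02 stress 2 were the stress libraries lowest on the first component, and they were among the lowest for *Xrp1* (919 and 724 CPM) and *Diap1* (270 and 306 CPM). Over the 23 stress libraries, the first component had a Pearson correlation of 0.83 with log2 *Xrp1* and 0.69 with log2 *Diap1*. This is a description only, since points share their library and *Xrp1* is among the 500 genes that defined the component. Without those 2 libraries, *rpr* passed the test over all lines (log2 0.27, edgeR adjusted p = 0.0373), and the *p53* call among lines was lost (0.0733).

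**Figure D3:**
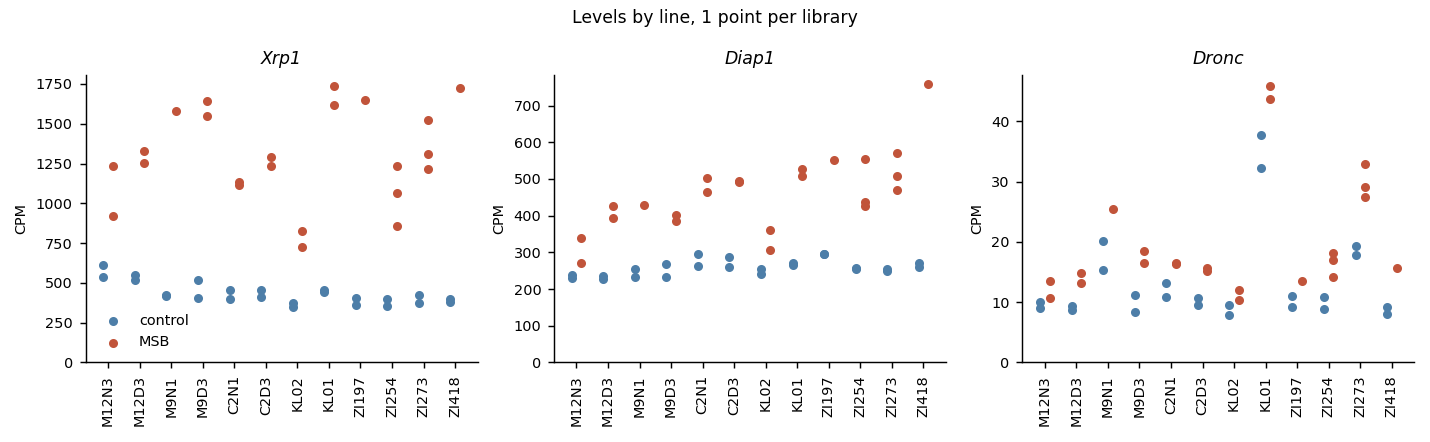
CPM of *Xrp1*, *Diap1* and *Dronc* by line, 1 point per library, controls and MSB side by side. *Xrp1* is higher under MSB in every line, and *Dronc* in KL01 is at 32.3 to 45.9 CPM in both treatments.

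Control levels also differed among lines. The Zambian controls were taken after the shorter time, so their differences from other lines cannot be told apart from time on food. An edgeR test of line in the 24 controls called 51.5% of tested genes and 4 of 9 members. These were *Dronc* (adjusted p = 3.58e-07), *irbp18* (9.93e-05), *Xrp1* (0.00577) and *p53* (0.0192). *Dronc* stood out, with 32.3 and 37.8 CPM in the KL01 controls, 17.7 and 19.3 in ZI273 and 20.2 and 15.4 in M9N1. Mean control levels in the other 9 lines were 8.60 to 12.03 CPM, so the highest line was 4.08 times the lowest. Without KL01 the *Dronc* adjusted p was 0.000246. *irbp18* ranged from 16.6 CPM in KL01 to 31.8 in M12N3, a ratio of 1.92. *Xrp1* ranged from 363 CPM in KL02 to 573 in M12N3 (1.58) and *p53* from 8.85 in ZI273 to 12.1 in M12N3 (1.36). The *p53* call was lost without either ZI273 control, M12N3 control 2 or ZI197 control 2, with adjusted p-values of 0.051 to 0.0644. For *Diap1* (0.0734), *skl* (0.104), *rpr*, *grim* and *hid* the line term did not pass in edgeR. The DESeq2 likelihood ratio test called 7069 of 13742 genes and 6 members, with *Diap1* (adjusted p = 0.00142) and *skl* (0.0413) added. In edgeR *Diap1* also passed without C2N1 control 2 (0.042) and *skl* without M12D3 control 2 (0.0479).

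Zambian lines represent the ancestral range of the species and were compared with the cosmopolitan lines, taking line as the unit. In controls 4 genes (0.0362%) were called and no member was, with 1207 genes and 1 member (*Xrp1*) at an unadjusted p under 0.05. Mean *Xrp1* was 387 ± 10.5 CPM in 4 Zambian and 458 ± 67.1 CPM in 8 cosmopolitan lines (SD over lines), a log2 difference of -0.25 ± 0.11 (SE, edgeR adjusted p = 0.423). In the response 0% of genes were called by limma, with 680 genes and 1 member at an unadjusted p under 0.05. The member was *Diap1*, whose log2 response was higher in Zambian lines by 0.37 ± 0.14 (SE, limma adjusted p = 0.686). For *Xrp1* the difference was 0.39 ± 0.20 (adjusted p = 0.775). Without ZI418 stress 1, the only stress library of its line, the differences were 0.23 for *Diap1* and 0.30 for *Xrp1*. With libraries as the unit, edgeR called 289 genes, with *Diap1* (0.0052) and *Xrp1* (0.019) among them. Origin and exposure time cannot be told apart here.

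To ask about the *MtnA* deletion, the 4 deletion lines were compared with the 4 nondeletion lines of the same backgrounds. Libraries were the replicates in this test, so its SEs do not include the spread between the 4 pairs of lines. In controls 3.15% of genes were called and no member was, with 1824 genes and 1 member (*Dronc*) at an unadjusted p under 0.05. Under MSB 8.34% of genes were called higher in deletion lines, and 4 of 9 members were. The log2 differences were 0.40 ± 0.07 for *Xrp1* (SE, edgeR adjusted p = 0.00122), 0.41 ± 0.08 for *Dronc* (0.00293), 0.25 ± 0.06 for *Diap1* (0.0101) and 0.23 ± 0.07 for *irbp18* (0.0229). Over the 4 pairs the SDs of the difference were larger than its mean, at 0.51 for *Xrp1*, 1.125 for *Dronc*, 0.35 for *Diap1* and 0.28 for *irbp18*. The difference was above 0 in 4 of 4 pairs for *Xrp1* and *irbp18*, in 3 for *Diap1* and in 2 for *Dronc*. Without M12N3 stress 2 and KL02 stress 2, 2 members were called, and *irbp18* (edgeR adjusted p = 0.0823) and *Diap1* (0.101) were not. The *irbp18* call was also lost without C2D3 stress 1, C2N1 stress 1, KL02 stress 1 or M12N3 stress 2 alone (0.058 to 0.0715). Without M9N1 stress 2 the M9 pair could not be compared and the *Dronc* difference was 0.72. The deletion by treatment term called 1.23% of genes and no member (1572 genes and 3 members at an unadjusted p under 0.05), with a value of 0.31 ± 0.10 for *Xrp1* (edgeR adjusted p = 0.147).

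These differences lay mainly in the Malaysian pair, whose lines differ in background as well as in the deletion. Without it no member was called under MSB, and the differences were 0.14 for *Xrp1* (edgeR adjusted p = 0.512), 0.09 for *irbp18*, 0.10 for *Diap1* and -0.14 for *Dronc*. Within Malaysia, *Xrp1* under MSB was at 1621 and 1740 CPM in KL01 and at 823 and 724 CPM in KL02. The log2 difference was 1.14 ± 0.14 (SE, edgeR adjusted p = 5.55e-06), against 0.25 in M12, 0.01 in M9 and 0.18 in C2. *irbp18* differed by 0.63, *Diap1* by 0.66 and *Dronc* by 2.03, so 4 members were called in a pair in which 14.6% of genes were called higher in KL01. In M12 (2.55% of genes) only *Diap1* was called, with a difference of 0.42 ± 0.12 (edgeR adjusted p = 0.0399). In M9 (0.737%) and C2 (0.466%) no member was called higher.

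*Dronc* already differed between lines of a background in controls, and in opposite directions. KL01 was above KL02 by 1.98 ± 0.16 on the log2 scale (SE, edgeR adjusted p = 3.5e-08), where 13.8% of genes were called in either direction. M9D3 was below M9N1, at -0.87 ± 0.16 (SE, edgeR adjusted p = 0.00273), where 2.58% were called. By the paper, the lines of both pairs also differ elsewhere in the genome. The *Dronc* response itself was 0.35 ± 0.14 in KL01 and 0.31 ± 0.14 in KL02, with a difference between them of 0.05 ± 0.22 (edgeR adjusted p = 0.948). The responses of *Xrp1* and *irbp18* were larger in KL01 than in KL02, by 0.85 ± 0.19 (edgeR adjusted p = 0.0283) and by 0.93 ± 0.18 (0.0083). That interaction was called in 1.81% of genes.

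**Figure D4:**
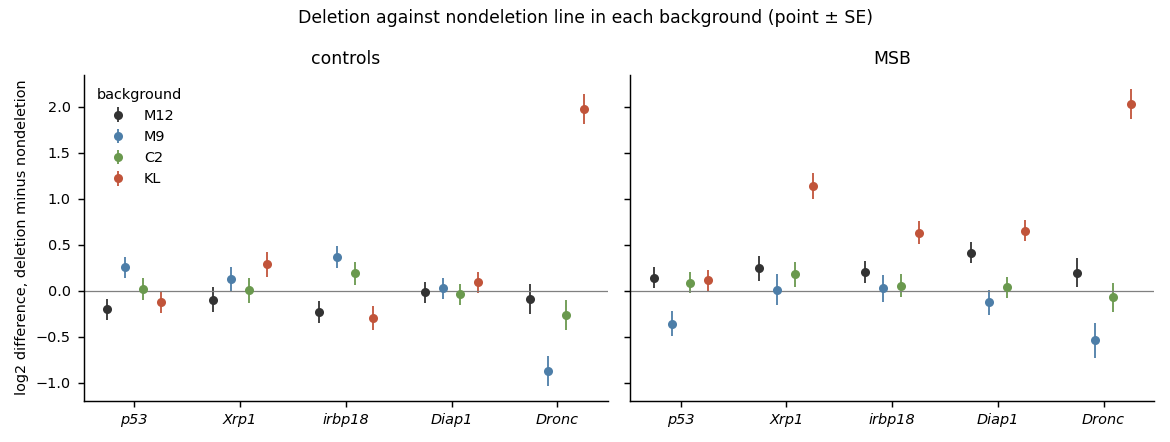
Log2 value of the deletion line minus that of the nondeletion line (point ± SE) for 5 genes in each of 4 backgrounds, in controls and under MSB. The KL points for *Xrp1*, *irbp18*, *Diap1* and *Dronc* under MSB are the highest of the 4 backgrounds.

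The other genes of the pathway were described from lists over the same fit over all lines, in which 27.3% of tested genes were called higher and 26.2% lower. Of 16 DNA damage response genes, 13 rose and 0 fell, with a median log2 change of 0.29. *Gadd45*, a stress-induced growth arrest gene, went from 9.80 ± 5.20 to 156 ± 70.9 CPM (SD, n = 24 and 23), a log2 change of 3.99 ± 0.22 (SE, edgeR adjusted p = 5.63e-20). *Corp*, a p53 target in flies, rose by 1.83 ± 0.23 on the log2 scale, from 1.69 to 6.01 CPM. Among 12 genes linked to Xrp1, 11 were tested, 6 rose and 1 fell (median 0.38). *upd3*, a cytokine gene, rose by 5.19 from 0.117 CPM, or 4.8 counts per control library, and *GstD1*, a glutathione transferase gene, by 2.19, while *crc*, the fly ATF4, fell by 0.25.

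Of 21 other genes of the apoptosis machinery, 19 were tested, 5 rose and 6 fell, with a median of 0.07. These counts are near the shares over all tested genes. *Dark*, the Apaf-1 homolog that assembles with Dronc, rose by 0.42 ± 0.06 and the effector caspase gene *Drice* by 0.40 ± 0.07, whereas *Dcp-1* had a log2 change of 0.07 (edgeR adjusted p = 0.557). The largest rise was that of the caspase gene *Strica* (0.57). *egr*, the fly TNF, fell by 0.74 and the Bcl-2 family gene *Debcl* by 0.46. Of 9 corpse clearance genes, 3 rose and 3 fell (median 0.03), again near the shares over all tested genes. *ced-6*, an engulfment adaptor gene, rose by 0.45 and *JMJD6* by 0.38, while *NimC1*, which is also a hemocyte marker, fell by 0.77 and *mbc*, an engulfment gene, by 0.27.

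**Figure D5:**
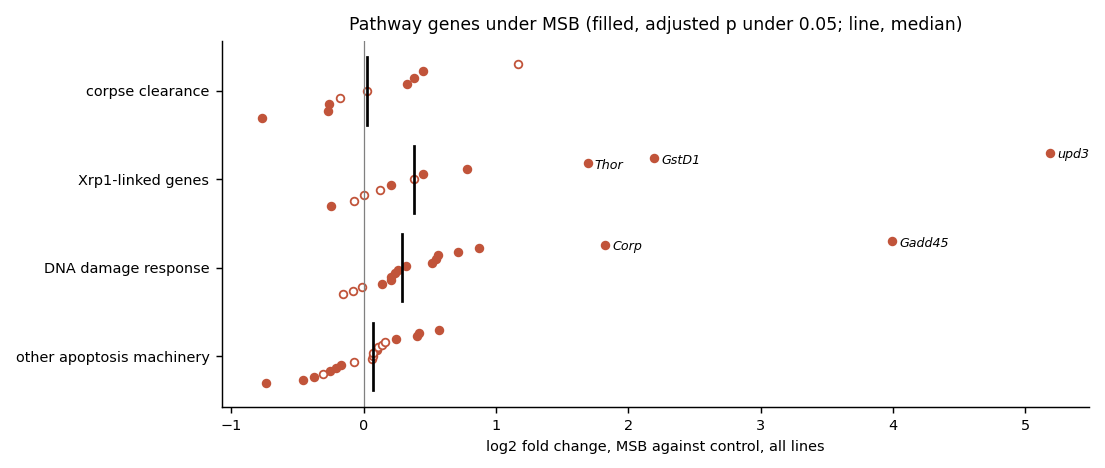
Log2 fold change over all lines for the tested genes of 4 lists, 1 point per gene, filled where past the threshold, with the list's median as a vertical line. *upd3* and *Gadd45* lie farthest to the right, and apoptosis genes lie on both sides of 0.

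Finally, genes with the most similar pattern were found from log2 CPM over 47 libraries after each treatment's mean was removed. For *Xrp1* these were *Rdh1* (r = 0.83), *Jra* (0.82) and *Tsp42Ed* (0.80) among 10513 other genes. *Jra* encodes the fly Jun, and all 3 genes rose under MSB, by 2.58, 1.11 and 2.42. For *rpr*, *RhoGDI* (0.62) and *CG8299* (0.62) were among the most similar, and for *hid* they were *BNIP3* (0.64), *dap* (0.63) and *ced-6* (0.63). Among the members themselves the highest value was that of *Xrp1* with *irbp18* (r = 0.48, with 0.65 in controls and 0.41 under MSB). *Xrp1* and *Diap1* had r = 0.62 under MSB but -0.33 in controls, and *Xrp1* and *p53* had 0.47 and 0.36. *Xrp1* with *rpr* was at 0.41 under MSB and -0.07 in controls. The libraries share lines and depth, so these values are descriptions.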

How the data were processed

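RNA-seq libraries of male heads from 12 lines with and without MSB were analysed from 1 table of read counts per gene. The counts were deposited by the authors without normalization. They had sequenced poly-A RNA in 150-bp paired-end reads and mapped these to the FlyBase transcriptome with NextGenMap. The counting program is not given in the sources used here. Their own tests used DESeq2 1.28.1 in R 4.0.0, per the labels. The gene length column was used for levels per kilobase.

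Gene symbols were matched by FlyBase identifier (13908 genes) or CG number (43), and 6 were not matched. The M9N1 stress library farthest from the other stress libraries on 2 principal components of 500 genes was left out, since the study excluded 1 such library without naming it in its text. Levels of members are TMM-scaled CPM. Tests used edgeR 4.0.16 (TMM, filterByExpr, quasi-likelihood) in R 4.3.3. Zambian responses were tested in limma 3.58.1 on line differences of log2 CPM with a prior count of 2. An edgeR SE is the size of the log2 change over the root of its F statistic. DESeq2 1.42.0 served as an alternative. The edgeR and limma tests were also run on simulated counts with known changes. These counts were drawn without the line differences of the real data, so they do not show how the tests behave with them. Replicates of a line are separate pools of heads, and replicates differed by more than counting noise in 25 of 25 pairs. Depth was 27223075 to 63358011 counts per library.

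Control and stress libraries of the same replicate number did not pair, since their deviations correlated at -0.09 to 0.22 over 9 lines and above 0.1 in only 2. The 9 genes and the gene lists were chosen with earlier results of these data known. From the lists, the 2 largest rises and falls past the threshold are named, with *Dark*, *Drice* and *Dcp-1*. A gene that the rule for similar patterns would name is not reported here.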

Additional observations from a re-analysis of the deposited data

Results flagged for a closer look

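The responses of *p53* (edgeR adjusted p = 0.0176), *Xrp1* (0.00212), *irbp18* (0.0223) and *Diap1* (0.00507) differed among the 12 lines by the line by treatment terms. Leaving out 1 library could remove the call for *p53*, *irbp18* or *Diap1*, but not that for *Xrp1*. In the Malaysian pair, the response of KL01 exceeded that of KL02 by 0.85 for *Xrp1* and by 0.93 for *irbp18* on the log2 scale.

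The M9N1 stress library that was left out had 1676 CPM of *Xrp1*, 15.5 CPM of *p53* and 402 CPM of *Diap1* when all 48 libraries were scaled together, each above the highest control (612, 13.0 and 295 CPM). The other M9N1 stress library had 1582, 21.2 and 429 CPM. In the library left out, the testis genes *dj* and *Mst87F* were at 399 and 343 CPM, against medians of 0.101 and 0.186 CPM in the stress libraries used, and the neuronal gene *nSyb* was at 780 CPM against 1500 CPM. The part of these shifts in its other values was not tested.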

How the results depend on the processing

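Over all lines, 5 to 6 members were called when each library was left out in turn. With line as a block 7 were called (7421 genes against 5627), and with the replicate block 6 (7019 genes against 5627). In the replicate block the added call was *hid* (log2 -0.16, edgeR adjusted p = 0.047), and the *p53* response was called in 3 lines against 8. With no filter *hid* passed too (-0.17, adjusted p = 0.032), and without Zambian lines *rpr* did (0.32, adjusted p = 0.0243). The *skl* change was -0.055 to 0.026 with 1 library left out and 0.026 without M12N3 stress 2 and KL02 stress 2, an alternative chosen after seeing the data. Leaving out libraries gave 35 to 44 member and line calls upward against 40, and 0 to 1 downward. The 35 came without ZI418 stress 1, where the line ZI418 and its 5 calls dropped out. M9N1, ZI197 and ZI418 each had 1 stress library in use. Without that library, tests of responses by line dropped the line. Without that of M9N1, the deletion tests under MSB and by treatment dropped the M9 pair. The downward call was *hid* in KL01 without KL01 control 1 (-0.65) or in ZI254 without ZI254 control 1 (-0.70). *rpr* was called in M12D3 without either M12N3 stress library (0.75 and 0.76). *Xrp1* in M12N3 lost its call without M12N3 control 2 (0.80, adjusted p = 0.0746).

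The line by treatment count of 1157 genes was 904 to 1907 with 1 library left out. With all 48 libraries the *p53* adjusted p was 0.225. For Zambian against cosmopolitan controls, libraries as the unit called 2 members and 2653 genes, RLE scaling called 8 genes against 4, and leaving out libraries gave 3 to 15. The differences were -0.001 for *p53* and 0.013 for *skl* with libraries as the unit, and with 1 library left out they were -0.007 to 0.038 for *p53*, -0.038 to 0.063 for *rpr* and -0.063 to 0.058 for *skl*. For the Zambian response, libraries as the unit called 2 members and 289 genes, leaving out libraries gave 0 to 2 genes, and *grim* was at -0.28 to 0.106.

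For deletion against nondeletion in controls, 88 genes were called without the Malaysian lines against 372, and 258 to 827 with 1 library left out. Without the Malaysian lines the differences were 0.028 for *p53*, 0.053 for *rpr*, -0.006 for *Diap1* and -0.405 for *Dronc*. With 1 library left out they were -0.049 to 0.025 for *p53*, -0.02 to 0.041 for *irbp18*, -0.103 to 0.079 for *rpr*, -0.007 to 0.368 for *grim*, -0.123 to 0.045 for *skl* and -0.006 to 0.04 for *Diap1*. Under MSB, 0 members and 288 genes were called without the Malaysian lines, with *Dronc* at -0.143, and 2 members and 846 genes without M12N3 stress 2 and KL02 stress 2. With all libraries *p53* was at 0.045 and *rpr* at 0.029. With 1 library left out, 3 to 4 members were called, with *p53* at -0.033 to 0.111, *rpr* at -0.088 to 0.081, *hid* at -0.017 to 0.111 and *grim* at -0.19 to 0.022. The *irbp18* call was lost without C2D3 stress 1, C2N1 stress 1, KL02 stress 1 or M12N3 stress 2 (adjusted p of 0.058 to 0.0715).

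For deletion by treatment, 13 genes were called without the Malaysian lines, 72 with all libraries and 68 without M12N3 stress 2 and KL02 stress 2, against 145, and 78 to 423 with 1 library left out. Members called were 0 to 1, the 1 being *Xrp1* without M12N3 stress 1 (0.37, adjusted p = 0.0351). Without the Malaysian lines *p53* was at -0.077, *irbp18* at -0.02 and *rpr* at -0.094. Without M12N3 stress 2 and KL02 stress 2, *p53* was at -0.033 and *rpr* at -0.095. With 1 library left out they were -0.028 to 0.195 and -0.088 to 0.124. The cause of these changes was not tested.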
